A study of Mus musculus with 15 samples.

Results

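The genes described here belong to the IL-1 family: the cytokines *Il1a*, *Il1b* and *Il18*, the receptor antagonist *Il1rn*, the signaling receptor *Il1r1* and the decoy receptor *Il1r2*. They were chosen by gene symbol and are 6 of the 55487 genes listed in the count table. Each of the 6 had enough counts to be tested.

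RNA from mouse conjunctiva, the mucosa that lines the eyelids and covers the white of the eye, was sequenced in 15 libraries, 5 in each of 3 groups. All mice were WT and of the strain labelled BALC/c, and the study's methods describe females aged 9 to 12 weeks. The skin of every mouse, controls included, had been sensitized with MC903, a vitamin D analog applied at 2.5 nmol per day for 7 days, and with the antigen OVA. Eye drops were given once daily for 7 days, from day 18 to day 24.

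The PBS group received PBS drops, and its label gives "N/A" for the antibody. The isotype group received OVA drops of 250 µg together with an isotype control antibody at 25 mg/kg. The anti–IL-4Rα group received the same OVA drops with 25 mg/kg of an antibody against IL-4Rα, the receptor chain that IL-4 and IL-13 share. Each OVA group thus differs from the PBS group in both antigen and antibody, and these cannot be told apart. Isotype against PBS asks what ocular OVA challenge changed, anti–IL-4Rα against isotype asks what receptor blockade changed under that challenge, and anti–IL-4Rα against PBS asks what was left of the response under blockade. The comparisons share libraries: the PBS libraries serve as control in 2 of them and the isotype libraries stand in 2.

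The PBS libraries held 67453932, 55243773, 52435180, 48622246 and 58144241 counts. The isotype libraries held 48657048, 87745024, 55573584, 55724845 and 51325239 counts, and the anti–IL-4Rα libraries 54178201, 71637073, 63064160, 50432495 and 51735412 counts. Library totals did not separate the groups, with exact permutation p of 0.778 for isotype against PBS, 0.849 for anti–IL-4Rα against isotype and 0.738 for anti–IL-4Rα against PBS (two-sided, n = 5 each). Conjunctival markers were present in every library. *Muc5ac*, the gel-forming mucin of goblet cells, had 42088 counts or more per library, and *Krt13*, a keratin of mucosal epithelium, 22436 or more.

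IL-1α and IL-1β bind the same receptor, IL-1R1, which recruits a shared accessory chain and the adaptor MyD88 and activates NF-κB. IL-1β and IL-18 are made as precursors and cleaved by caspase-1 in inflammasomes, whereas IL-1α is stored in epithelial cells and released when they are damaged. The antagonist encoded by *Il1rn* occupies IL-1R1 without signaling, the decoy IL-1R2 captures IL-1 but lacks the signaling domain, and surface epithelia are known for their stores of IL-1α, antagonist and IL-18.

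Some libraries stood apart. Isotype replicate 1 had *Il1b* at 4.64 CPM (counts scaled to a common library size with TMM factors), within the PBS range, and was also the lowest isotype library for *Il1rl1*, *Il6*, *Saa3*, *Ptgs2*, *Mmp9*, *Nlrp3* and *Cxcl2*. Lacrimal gland genes varied widely within groups. The summed level of the lacrimal acinar markers was 118, 3531, 199, 7507 and 52100 CPM in PBS replicates 1 to 5, and 32910, 118, 6402, 27460 and 4455 CPM in isotype replicates 1 to 5. It was 119400, 61520, 1292, 157200 and 148900 CPM in anti–IL-4Rα replicates 1 to 5. Thus 4 of the 5 anti–IL-4Rα libraries lay above every PBS and isotype library, and anti–IL-4Rα replicate 3 lay with the low ones. Isotype replicate 2, which shared the lowest lacrimal sum with PBS replicate 1, held 287092 counts of the hair follicle keratin *Krt71*, against 36848 or fewer in the other 14 libraries. The study's methods mention outlying samples without naming them, so all 15 libraries were kept.

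Isotype against PBS, *Il1b* rose and the decoy receptor *Il1r2* fell, which makes 2 of 6 members with an adjusted p under 0.05. Of all 19006 genes tested, 17.0% passed in that comparison, 9.53% higher and 7.49% lower, so 1 member in each direction is read against those shares. Anti–IL-4Rα against isotype, *Il1b* fell and was the 1 member of 6 that passed, against 14.9% of all genes (6.73% higher, 8.13% lower). Anti–IL-4Rα against PBS, 0 of 6 members passed in edgeR, against 3.72% of all genes (2.28% higher, 1.44% lower). At an unadjusted p under 0.05 that last count was 1, and it was 0 with DESeq2 and 0 with limma. It became 1 without anti–IL-4Rα replicate 3, when *Il18* passed. The number of all genes called in anti–IL-4Rα against PBS, 707, moved from 82 (without PBS replicate 1, and also without PBS replicate 2) to 2029 (without anti–IL-4Rα replicate 3). The median log2 fold change of the 6 members was -0.05, -0.08 and -0.18 in isotype against PBS, anti–IL-4Rα against PBS and anti–IL-4Rα against isotype, beside -0.01, 0.00 and 0.01 for all genes tested. The shares of all genes given here also stand beside the counts in the gene lists below.

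**Figure D1:**
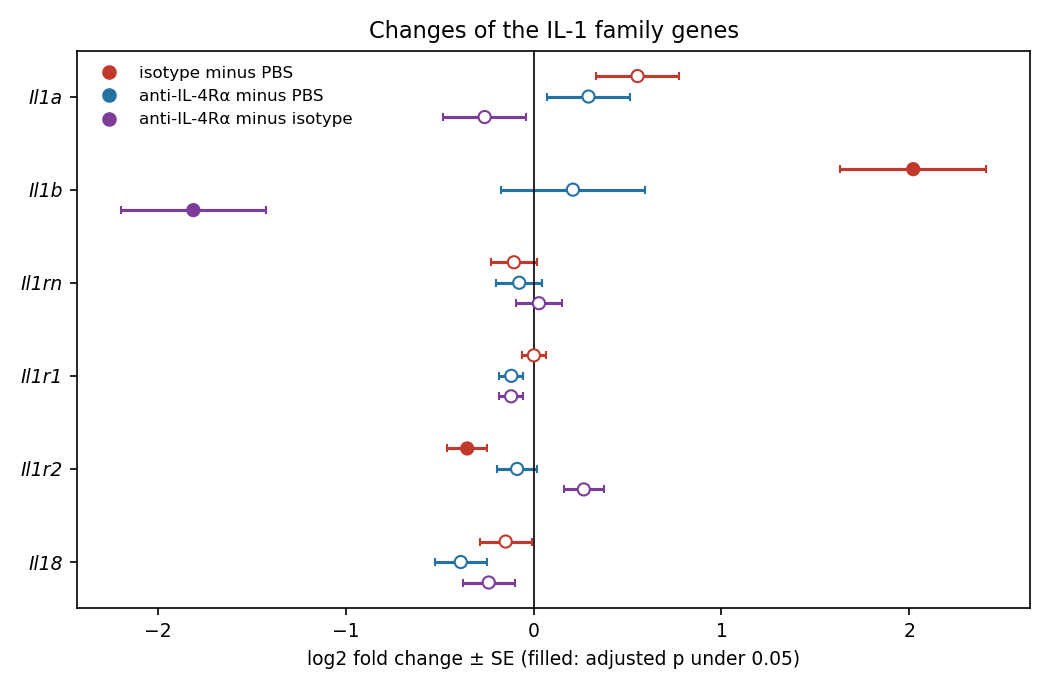
Log2 fold change of each of the 6 genes in the 3 comparisons (points; bars show the SE from the edgeR fit, n = 5 libraries per group), with filled points where the adjusted p was under 0.05. *Il1b* lies at 2.02 for isotype minus PBS and at -1.81 for anti–IL-4Rα minus isotype, and the other filled point is *Il1r2* at -0.35 for isotype minus PBS.

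*Il1b* encodes IL-1β, the inducible ligand, made mainly by activated myeloid cells (ENSMUSG00000027398, chr2:129364570-129371139 of GRCm38, minus strand). PBS replicates 1 to 5 had 6.13, 3.78, 3.84, 3.73 and 4.27 CPM. In isotype replicates 1 to 5 the level was 4.64, 23.3, 13.5, 20.4 and 26.6 CPM. Anti–IL-4Rα replicates 1 to 5 had 2.85, 3.71, 5.00, 8.33 and 5.36 CPM. Isotype replicates 2 to 5 lay above every PBS and every anti–IL-4Rα library, while isotype replicate 1 lay inside both of those ranges, so the groups overlapped through that library. The group means were 4.35 ± 1.02 CPM in PBS, 17.7 ± 8.74 CPM in isotype and 5.05 ± 2.09 CPM in anti–IL-4Rα (SD, n = 5 each), from 134 to 2274 counts per library.

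*Il1b* was 4.06-fold higher in isotype than in PBS (log2 2.02 ± 0.39 SE, adjusted p = 0.00547). Anti–IL-4Rα stood at 0.285 times the isotype level (log2 -1.81 ± 0.39, adjusted p = 0.0130), and against PBS the log2 difference was 0.21 ± 0.38 (adjusted p = 0.799). Without isotype replicate 1 the increase was 2.26 (adjusted p = 0.000288) and the difference between anti–IL-4Rα and isotype -2.05 (adjusted p = 0.00102). The increase passed under 8 of 8 other settings. The lower level under blockade passed under 6 of 8, with adjusted p from 6.36e-05 to 0.0576: it was 0.0514 when only the 2 groups were fitted and 0.0576 (log2 -1.61) with the lacrimal marker level as a covariate.

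*Il1a* encodes IL-1α, the ligand that epithelial cells hold ready (ENSMUSG00000027399, chr2:129299610-129309972, minus strand). Its level was 19.96, 17.7, 23.3, 15.4 and 13.95 CPM in PBS replicates 1 to 5. Isotype replicates 1 to 5 had 28.8, 20.9, 37.4, 17.8 and 27.8 CPM, and anti–IL-4Rα replicates 1 to 5 had 17.3, 14.5, 24.7, 25.4 and 28.8 CPM. Isotype replicates 1, 3 and 5 lay above all PBS libraries, isotype replicates 2 and 4 lay among them, and the anti–IL-4Rα libraries spread over both ranges. Group means were 18.1 ± 3.69, 26.5 ± 7.62 and 22.1 ± 5.99 CPM (SD, n = 5 each) in PBS, isotype and anti–IL-4Rα. The log2 difference was 0.55 ± 0.22 for isotype against PBS (adjusted p = 0.0987), 0.29 ± 0.22 for anti–IL-4Rα against PBS (adjusted p = 0.462) and -0.26 ± 0.22 for anti–IL-4Rα against isotype (adjusted p = 0.423). Isotype against PBS passed in 1 of 15 fits that left out a library, the one without isotype replicate 4 (0.67, adjusted p = 0.0494).

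**Figure D2:**
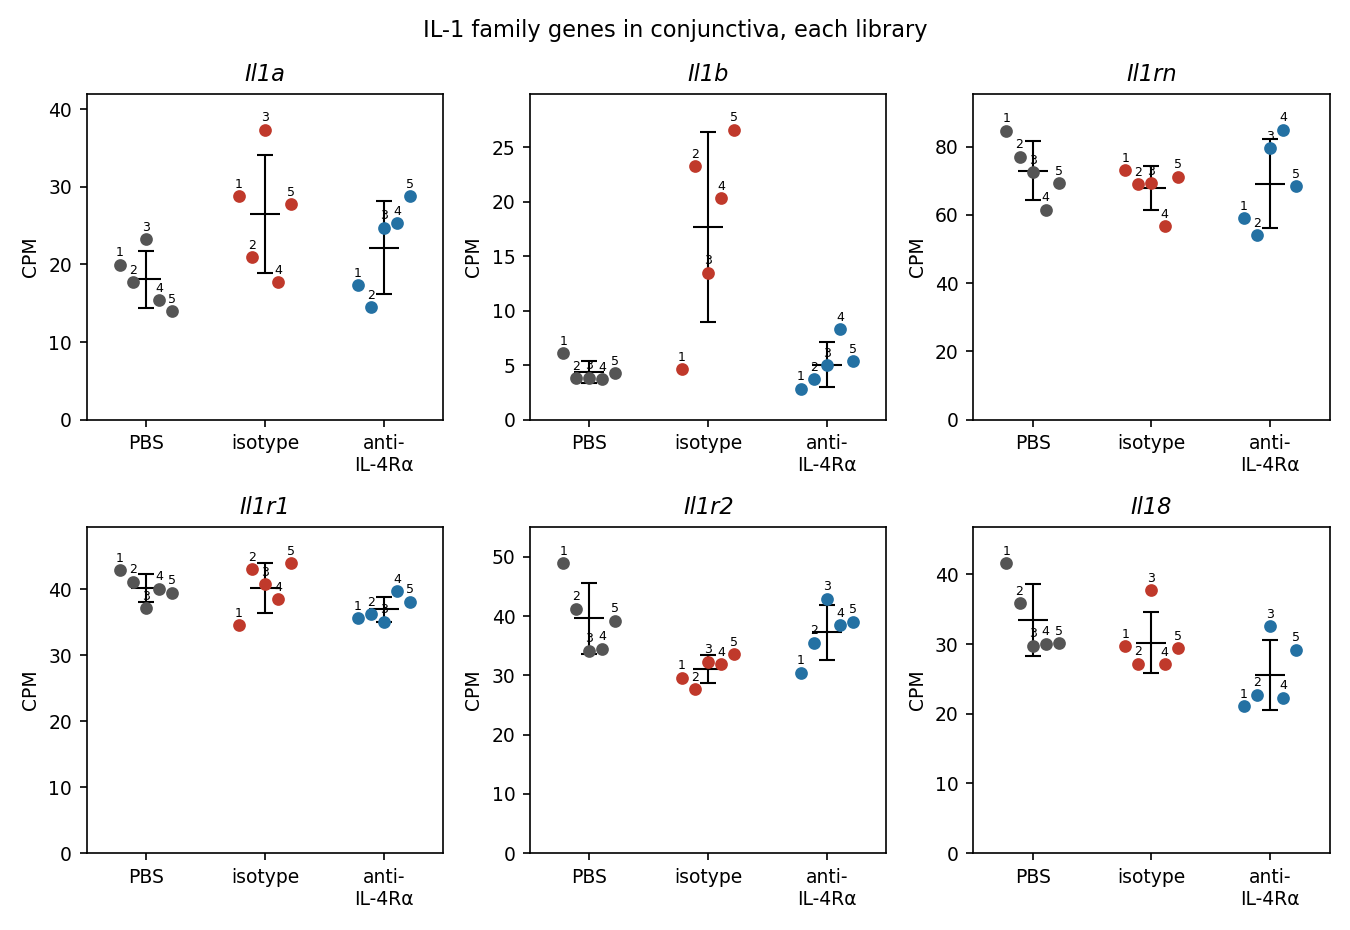
Level of each of the 6 genes in CPM (vertical axes from 0) in the 15 libraries, numbered by replicate, with the mean and SD of each group of 5. For *Il1b*, isotype replicates 2 to 5 lie between 13.5 and 26.6 CPM and all other libraries at 8.33 CPM or lower; for *Il1r2*, all isotype libraries lie below all PBS libraries.

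The 2 ligand genes lie close together on chromosome 2 and are read from the same strand, so the sequences before their starts are shown for comparison. In the RefSeq table of GRCm38.p6, 9 promoter entries matched the 6 genes, 3 of them for *Il1rn* and 2 for *Il1r1*. The sequences are the 250 bases before the annotated start, chr2:129309973-129310222 for *Il1a* and chr2:129371140-129371389 for *Il1b*, both on the minus strand and written 5′ to 3′. Capitals mark the TATAAA motif.
Il1a: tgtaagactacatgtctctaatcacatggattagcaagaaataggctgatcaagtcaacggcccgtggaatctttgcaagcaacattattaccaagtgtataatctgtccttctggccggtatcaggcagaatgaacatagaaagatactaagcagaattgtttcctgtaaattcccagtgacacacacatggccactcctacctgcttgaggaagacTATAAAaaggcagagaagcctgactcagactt
Il1b: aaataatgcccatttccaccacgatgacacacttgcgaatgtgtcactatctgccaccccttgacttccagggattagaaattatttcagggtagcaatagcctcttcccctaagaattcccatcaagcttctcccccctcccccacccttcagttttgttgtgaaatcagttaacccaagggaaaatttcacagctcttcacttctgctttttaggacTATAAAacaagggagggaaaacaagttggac
The motif began at position -32 in *Il1a* and at position -31 in *Il1b*, counted from the start. TATAAA was found on either strand in 4063 of 32851 promoter windows of this length (12.4%). The NF-κB consensus (kappaB), searched on both strands and held by 2382 of the windows (7.25%), and the STAT6 element TTCNNNNGAA, held by 1923 (5.85%), had no match in these windows of *Il1a* and *Il1b*. Among the other members, TTCNNNNGAA matched in 2 overlapping *Il1rn* windows and in *Il18*, TATAAA matched in *Il18*, and the kappaB consensus matched in 1 of the *Il1r1* windows. A match is a description of these letters, and no match says only that the letters are absent from the window.

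Antisense genes overlap the exons of both ligand genes. *Gm14023*, on the opposite strand, shares 222 bases (11.2% of the exon length) with *Il1a* and had 45 to 89 counts per library, and *Il1bos* shares 25 bases (1.31%) with *Il1b* and had 40 to 94 counts. Whether strand was used in counting is not stated, so reads from these shared bases cannot be told apart.

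*Il1rn* encodes the receptor antagonist (ENSMUSG00000026981, chr2:24336853-24351494, plus strand). PBS replicates 1 to 5 had 84.7, 77.0, 72.6, 61.5 and 69.2 CPM. Isotype replicates 1 to 5 had 73.0, 69.1, 69.3, 56.6 and 71.2 CPM, and anti–IL-4Rα replicates 1 to 5 had 59.0, 54.1, 79.5, 85.0 and 68.4 CPM. The 3 groups overlapped throughout, and the anti–IL-4Rα libraries spread most, with replicates 3 and 4 high and replicates 1 and 2 low. Means were 73.0 ± 8.65, 67.9 ± 6.47 and 69.2 ± 13.1 CPM (SD, n = 5 each). The differences of -0.11 ± 0.12, -0.08 ± 0.12 and 0.03 ± 0.12 (log2, isotype against PBS, anti–IL-4Rα against PBS, anti–IL-4Rα against isotype) had adjusted p of 0.583, 0.757 and 0.891.

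*Il1r2* encodes the decoy receptor (ENSMUSG00000026073, chr1:40074079-40125231, plus strand). Its level was 48.9, 41.3, 34.2, 34.5 and 39.3 CPM in PBS replicates 1 to 5 and 29.6, 27.7, 32.3, 31.9 and 33.6 CPM in isotype replicates 1 to 5. The anti–IL-4Rα libraries had 30.5, 35.5, 43.0, 38.5 and 39.1 CPM. All isotype libraries lay below all PBS libraries, though isotype replicate 5 and PBS replicate 3 were close, and anti–IL-4Rα replicates 2 to 5 lay above all isotype libraries while replicate 1 lay among them. Means were 39.6 ± 6.02, 31.0 ± 2.37 and 37.3 ± 4.66 CPM (SD, n = 5 each) in PBS, isotype and anti–IL-4Rα.

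Isotype stood at 0.782 times the PBS level of *Il1r2* (log2 -0.35 ± 0.11, adjusted p = 0.0334). Anti–IL-4Rα against isotype gave 0.27 ± 0.11 (adjusted p = 0.0960) and anti–IL-4Rα against PBS -0.09 ± 0.11 (adjusted p = 0.668). The decrease passed under 6 of 8 other settings, with adjusted p from 0.0127 to 0.0781. It did not pass with no filter on low counts (0.0561) or with the replicate number as a block (0.0781). It passed in 10 of 15 fits that left out a library, and was lost without PBS replicate 1 (adjusted p = 0.0717), PBS replicate 2 (0.0717), PBS replicate 5 (0.0594), isotype replicate 2 (0.0807) and isotype replicate 3 (0.0592). Without isotype replicate 1 it was -0.34 (adjusted p = 0.0495).

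*Il1r1*, the signaling receptor (ENSMUSG00000026072, chr1:40225080-40317257, plus strand), was the steadiest of the 6 genes in the PBS and anti–IL-4Rα libraries by its SD relative to its mean. PBS libraries ranged from 37.1 to 42.9 CPM, isotype from 34.6 to 44.0 CPM and anti–IL-4Rα from 35.1 to 39.8 CPM, so the groups overlapped. Means were 40.2 ± 2.14, 40.2 ± 3.77 and 37.0 ± 1.93 CPM (SD, n = 5 each). The log2 difference was 0.00 ± 0.06 for isotype against PBS (adjusted p = 0.995), with its sign turning under 3 other settings, -0.12 ± 0.06 for anti–IL-4Rα against PBS (adjusted p = 0.274) and -0.12 ± 0.06 for anti–IL-4Rα against isotype (adjusted p = 0.199). Without isotype replicate 1, which had the lowest isotype level, the last of these passed (-0.17, adjusted p = 0.0473).

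*Il18* encodes a cytokine stored in epithelium that drives interferon-γ production (ENSMUSG00000039217, chr9:50554827-50581840, plus strand). PBS replicates 1 to 5 had 41.6, 35.9, 29.8, 30.1 and 30.1 CPM. Isotype replicates 1 to 5 had 29.7, 27.2, 37.7, 27.1 and 29.4 CPM, and anti–IL-4Rα replicates 1 to 5 had 21.1, 22.7, 32.6, 22.3 and 29.2 CPM. Anti–IL-4Rα replicates 1, 2 and 4 lay below all PBS and isotype libraries, while replicates 3 and 5 reached into or near those ranges. Means were 33.5 ± 5.20, 30.2 ± 4.37 and 25.6 ± 5.01 CPM (SD, n = 5 each). The log2 difference was -0.15 ± 0.14 for isotype against PBS (adjusted p = 0.487), -0.39 ± 0.14 for anti–IL-4Rα against PBS (adjusted p = 0.114) and -0.24 ± 0.14 for anti–IL-4Rα against isotype (adjusted p = 0.240). Without the lacrimal-poor anti–IL-4Rα replicate 3, anti–IL-4Rα against PBS passed (-0.49, adjusted p = 0.0319), and over the 8 other settings with all libraries its adjusted p ran from 0.0661 to 0.424.

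Levels of different genes were compared as CPM per kilobase of exon, a scale like FPKM computed here. The exon length merged all annotated transcripts of a gene, so order and ratios rest on lengths that the expressed transcripts may not have. In PBS libraries *Il18* was highest (32.5 ± 5.05), followed by *Il1r2* (20.8 ± 3.16), *Il1rn* (13.2 ± 1.56), *Il1a* (9.15 ± 1.87), *Il1r1* (6.31 ± 0.336) and *Il1b* (2.28 ± 0.534; SD, n = 5). Neighbours in this order did not overlap except *Il1rn* and *Il1a*. In the isotype group, as CPM per kilobase, the order was *Il18* (29.3 ± 4.24), *Il1r2* (16.3 ± 1.24), *Il1a* (13.4 ± 3.86), *Il1rn* (12.3 ± 1.17), *Il1b* (9.27 ± 4.58) and *Il1r1* (6.31 ± 0.593). There, neighbours overlapped except *Il18* and *Il1r2*, and *Il1b* stood above *Il1r1*. In the anti–IL-4Rα group the order on that scale was again that of PBS: *Il18* (24.8 ± 4.86), *Il1r2* (19.6 ± 2.44), *Il1rn* (12.5 ± 2.37), *Il1a* (11.2 ± 3.03), *Il1r1* (5.81 ± 0.304) and *Il1b* (2.65 ± 1.09). In that group *Il18* overlapped *Il1r2* and *Il1rn* overlapped *Il1a*, and the other neighbours were apart.

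Ratios of inhibitor to ligand, on the same scale, are given as a description of each library with no test. *Il1rn* to *Il1b* had a median of 5.68 in PBS (lowest 4.76, highest 7.02) and 5.03 in anti–IL-4Rα (3.52 to 7.11). Isotype replicates 1 to 5 had ratios of 5.43, 1.02, 1.77, 0.959 and 0.921, and isotype replicate 1 resembled PBS. In 4 of 5 isotype libraries the antagonist thus stood, per length, at 1.77 times the *Il1b* level or less. Without division by length, the isotype means were 67.9 CPM for *Il1rn* (5535 exon bases) and 17.7 CPM for *Il1b* (1907). The mean log2 ratio of *Il1rn* to *Il1b* was 2.55 in PBS, 0.62 in isotype (0.17 without isotype replicate 1) and 2.31 in anti–IL-4Rα. *Il1rn* to *Il1a* had a median of 1.51 in PBS (1.11 to 1.77), 0.915 in isotype (0.662 to 1.18) and 1.20 in anti–IL-4Rα (0.846 to 1.33). The decoy to the receptor, *Il1r2* to *Il1r1*, had a median of 3.31 in PBS (2.87 to 3.80), 2.64 in isotype (2.14 to 2.86) and 3.26 in anti–IL-4Rα (2.85 to 4.08). Per length, the decoy thus exceeded the receptor in all 15 libraries, with 1908 exon bases for *Il1r2* and 6363 for *Il1r1*. Without division by length the 2 genes had mean CPM of 39.6 and 40.2 in PBS. These means were 31.0 and 40.2 in isotype and 37.3 and 37.0 in anti–IL-4Rα. The isotype ratios lay below the PBS ratios in every library, by a narrow margin (2.86 against 2.87).

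**Figure D3:**
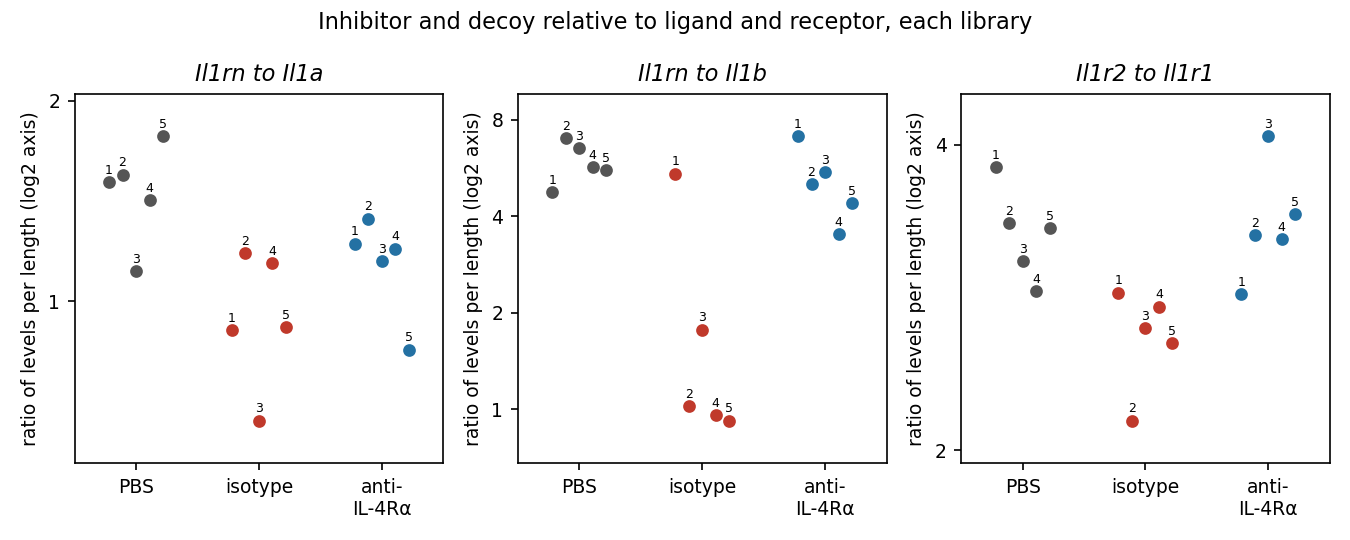
Ratio of levels per length (log2 axes) for *Il1rn* to *Il1a*, *Il1rn* to *Il1b* and *Il1r2* to *Il1r1* in each of the 15 libraries, numbered by replicate. For *Il1rn* to *Il1b*, isotype replicates 2 to 5 lie between 0.921 and 1.77, and all other libraries lie at 3.52 or higher.

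Some members lie in gene clusters. *Il1rn* lies on chromosome 2 beside its relatives *Il36b* (chr2:24153161-24160519), *Il36g* (chr2:24186476-24193568), *Il36a* (chr2:24215418-24225702), *Il36rn* (chr2:24276954-24283426) and *Il1f10* (chr2:24291196-24293820). *Il1r2* and *Il1r1* lie on chromosome 1 beside the receptor genes *Il1rl2* (chr1:40324610-40367562), *Il1rl1* (chr1:40429570-40465415), *Il18r1* (chr1:40465552-40500854) and *Il18rap* (chr1:40515362-40551705). Of these genes, *Il1r2* fell in isotype against PBS while *Il1rl1* and *Il18rap* rose.

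Other IL-1 family ligands formed a list of 6 genes, led in level by *Il36g* (35.6 CPM per kilobase, mean of 15 libraries). Their median log2 fold change was 0.08 in isotype against PBS and -0.34 in anti–IL-4Rα against PBS, beside -0.01 and 0.00 for all genes. In edgeR 0 of 6 passed in each of these comparisons: at an unadjusted p under 0.05 the counts were 1 and 2, and DESeq2 and limma each gave 0. Anti–IL-4Rα against isotype had a median of -0.38, beside 0.01 for all genes, and 1 of 6 fell, where 8.13% of all genes did. The gene that fell was *Il36b*, an epithelial cytokine of the IL-36 group. It had 20.9, 23.3, 34.3, 20.5 and 19.95 CPM in the isotype libraries and 11.6, 10.3, 16.2, 14.1 and 15.1 CPM in the anti–IL-4Rα libraries. Every anti–IL-4Rα library lay below every isotype library, with a log2 difference of -0.82 ± 0.17 (adjusted p = 0.0124).

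Among 7 other family receptors and binding proteins, the most abundant per length was *Il1rl2*, the IL-36 receptor (11.2 CPM per kilobase). In isotype against PBS 3 of 7 passed, each higher, where 9.53% of all genes were, with a list median of 0.20 beside -0.01 for all genes. The largest increase was that of *Il1rl1*, which encodes ST2, the IL-33 receptor of type 2 immune cells. Its level was 3.37, 4.21, 4.02, 3.82 and 3.74 CPM in PBS, 4.88, 26.8, 19.8, 21.8 and 18.8 CPM in isotype and 5.77, 5.76, 7.53, 5.66 and 5.67 CPM in anti–IL-4Rα replicates 1 to 5. Each isotype library exceeded each PBS library, isotype replicate 1 only just, and the log2 difference was 2.27 ± 0.31 (4.81-fold, adjusted p = 0.000936; 2.51 and 3.33e-07 without isotype replicate 1). *Il18rap*, a chain of the IL-18 receptor, rose by 1.05 ± 0.23 (adjusted p = 0.00939), and *Il18bp*, the soluble inhibitor of IL-18, rose by 0.83 ± 0.14 (adjusted p = 0.00270).

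Under blockade 2 of these 7 genes were lower than in isotype, where 8.13% of all genes were, with a list median of -0.36 beside 0.01. *Il1rl1* differed by -1.60 ± 0.30 (adjusted p = 0.00769; -1.84 and 4.46e-06 without isotype replicate 1). *Il1rl2* differed by -0.36 ± 0.10 (adjusted p = 0.0284), which passed in 10 of 15 fits leaving out a library, with the highest adjusted p, 0.0769, without isotype replicate 3. Its call was also lost with the lacrimal covariate (adjusted p = 0.121) and in 2 more of the 8 other settings. Anti–IL-4Rα against PBS, 0 of 7 passed in edgeR (median 0.17 beside 0.00), 3 at an unadjusted p under 0.05, 1 with DESeq2 and 0 with limma.

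The inflammasome and cytokine processing list held 11 genes, of which *Capn1*, a calpain protease, was highest per length (71.3 CPM per kilobase). In isotype against PBS 5 of 11 rose, against 9.53% of all genes, with a median of 0.41 beside -0.01 for all genes. They were the sensors *Nlrp3* (1.30 ± 0.26, adjusted p = 0.00694), *Nlrp1b* (0.91 ± 0.24, adjusted p = 0.0199) and *Mefv* (0.84 ± 0.27, adjusted p = 0.0478), *Nlrc4* (0.55 ± 0.15, adjusted p = 0.0271), and the pore-forming effector *Gsdmd*, named because the count is small. *Nlrp3* was at 1.45, 2.62, 2.22, 3.01 and 4.73 CPM in isotype replicates 1 to 5 and between 0.975 and 1.42 CPM in PBS. All isotype libraries lay above the PBS range. The calls were not equally firm: without 1 library, *Mefv* passed in 3 of 15 fits (adjusted p up to 0.119, without isotype replicate 5; 3 of 8 other settings) and *Nlrc4* in 10 (up to 0.0750, without isotype replicate 3), and *Nlrp1b* was lost without isotype replicate 3 (0.0561). With limma on log2(CPM + 1) the differences were smaller: 0.76 for *Nlrp3*, 0.48 for *Nlrp1b*, 0.56 for *Mefv* and 0.28 for *Nlrc4*.

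Caspase-1 itself (*Casp1*) had an adjusted p of 0.267 in isotype against PBS (log2 -0.15). It is named here after its values were seen. Anti–IL-4Rα against isotype, 1 of 11 fell, against 8.13% of all genes, with a list median of -0.12 beside 0.01. The gene that fell was *Nlrp3* (-0.84 ± 0.26, adjusted p = 0.0446). That call passed in 2 of 15 fits leaving out a library (highest adjusted p 0.103, without isotype replicate 5) and under 3 of 8 other settings (-0.52 with limma). In anti–IL-4Rα against PBS edgeR gave 0 of 11 (median 0.07 beside 0.00), with 3 at an unadjusted p under 0.05, 3 with DESeq2 and 0 with limma.

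Of 19 genes of IL-1 receptor signaling, led by the NF-κB inhibitor *Nfkbia* (56.6 CPM per kilobase), 5 rose in isotype against PBS, where 9.53% of all genes did. The list median was 0.07 beside -0.01. The adaptor *Myd88* rose by 0.29 ± 0.06 (adjusted p = 0.00664) with no overlap between the groups. Increases were also found for *Tnfaip3*, which encodes the feedback inhibitor A20 (0.79 ± 0.21, adjusted p = 0.0205), *Nfkb1* (0.28 ± 0.07, adjusted p = 0.0171) and the kinase *Irak4* (0.27 ± 0.08, adjusted p = 0.0330). The fifth, *Ikbkb*, is named because the count is small. *Tnfaip3* was lost without PBS replicate 2 (0.0509) or PBS replicate 5 (0.0518), and *Irak4* passed in 10 of 15 such fits (highest 0.0834, without isotype replicate 3) and under 5 of 8 other settings.

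Under blockade 2 of these 19 genes (1 lower, 1 higher) passed against isotype, where 14.9% of all genes did. *Myd88* fell, with a log2 difference of -0.28 ± 0.06 (adjusted p = 0.0120), with every anti–IL-4Rα library below every isotype library, and *Irak1* rose by 0.43 ± 0.11 (adjusted p = 0.0200), with a list median of 0.00 beside 0.01. With only the 2 groups fitted the adjusted p was 0.0503 for *Myd88* and 0.0619 for *Irak1*. *Irak1* also passed against PBS (0.45 ± 0.11, adjusted p = 0.0365), the 1 gene of 19 to do so (1 with DESeq2, 0 with limma), with a median of 0.05 beside 0.00. Its level was 137, 125, 91.7, 146 and 145 CPM in anti–IL-4Rα replicates 1 to 5, so the lacrimal-poor replicate 3 lay in the PBS range of 89.6 to 107 CPM and the lacrimal-rich ones above it. With the lacrimal covariate *Irak1* differed by 0.24 from PBS (adjusted p = 0.178) and by 0.28 from isotype (0.0596). Leaving out single libraries, it passed in 7 of 15 fits against PBS (highest 0.0940, without PBS replicate 2) and in 11 of 15 against isotype (highest 0.0547, without isotype replicate 3).

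Genes known to be induced by IL-1 formed a list of 15, of which *S100a8* and *S100a9* are also in the neutrophil list. *S100a9* was highest per length (35.2 CPM per kilobase). In isotype against PBS 6 of 15 rose, against 9.53% of all genes, and the list median of 1.10 stood beside -0.01 for all genes. *Il6* went from 0.151, 0.0679, 0.0708, 0.0382 and 0.0703 CPM in PBS to 0.429, 1.63, 0.858, 1.31 and 2.69 CPM in isotype replicates 1 to 5. The isotype and PBS ranges did not touch, but the lowest count behind these values was 2 and the highest 159, so the size of the change is less certain than its direction. The increases were 4.04 ± 0.57 for *Il6* (adjusted p = 0.00108), 3.02 ± 0.49 for the neutrophil chemokine *Cxcl2* (adjusted p = 0.00220), 2.79 ± 0.46 for the acute-phase gene *Saa3* (adjusted p = 0.00242) and 1.74 ± 0.45 for *Ptgs2*, which encodes the prostaglandin synthase COX-2 (adjusted p = 0.0196). With limma, which adds 1 to the CPM before taking logs and so gives smaller differences at low levels, they were 1.06, 1.77, 1.81 and 1.06, all passing. *Ptgs2* was lost without isotype replicate 2 (0.0528). *Sele* and *Mmp9* were the other 2.

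Blockade was accompanied by lower levels of 5 of the 15 against isotype, where 8.13% of all genes were lower, with a median of -0.82 beside 0.01. *Mmp9*, a matrix protease of myeloid cells, was at 14.5, 23.2, 40.5, 32.0 and 46.3 CPM in isotype and 12.6, 11.97, 11.7, 11.6 and 8.98 CPM in anti–IL-4Rα replicates 1 to 5. No anti–IL-4Rα library reached the isotype range, nor the PBS range of 14.7 to 18.03 CPM, and the log2 difference was -1.46 ± 0.24 from isotype (adjusted p = 0.00380) and -0.50 ± 0.23 from PBS (adjusted p = 0.217). The others were *Il6* (-2.29 ± 0.50, adjusted p = 0.0141), *Ptgs2* (-2.12 ± 0.46, adjusted p = 0.0137), *Saa3* (-1.55 ± 0.44, adjusted p = 0.0325) and *Sele*. With the lacrimal covariate the differences were -1.995 for *Il6* (adjusted p = 0.0730), -1.82 for *Ptgs2* (0.0761) and -1.39 for *Saa3* (0.148). With only the 2 groups fitted they were -2.29, -2.12 and -1.55 (adjusted p = 0.0513, 0.0516 and 0.0851), and with limma -0.83, -1.29 and -1.09, of which *Saa3* did not pass (adjusted p = 0.0628). *Saa3* passed in 9 of 15 fits leaving out a library (highest 0.0778, without isotype replicate 3).

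Against PBS, 2 of the 15 were higher under blockade (6 with DESeq2, 0 with limma), where 2.28% of all genes were in edgeR, with a median of 0.43 beside 0.00. These were *Cxcl2* (1.91 ± 0.48, adjusted p = 0.0431), at 1.43, 1.24, 1.17, 4.69 and 3.33 CPM in anti–IL-4Rα replicates 1 to 5 and between 0.387 and 0.839 CPM in PBS, and the adhesion molecule *Icam1* (0.51 ± 0.13, adjusted p = 0.0444). All anti–IL-4Rα libraries lay above all PBS libraries for both genes. Both calls depended on single libraries: *Cxcl2* passed in 4 of 15 fits and *Icam1* in 6, each with its highest adjusted p without PBS replicate 2 (0.103 and 0.112). With the lacrimal covariate the differences were 1.83 and 0.61 (adjusted p = 0.184 and 0.0761), and with limma that of *Cxcl2* was 0.93 (adjusted p = 0.106). Of the 58 genes in the 5 pathway lists, 19 passed in isotype against PBS, 3 in anti–IL-4Rα against PBS and 11 in anti–IL-4Rα against isotype, where 17.0%, 3.72% and 14.9% of all genes did. They were 24, 11 and 14 with DESeq2 and 16, 0 and 10 with limma, and the last was 3 with only the 2 groups fitted. Leaving out 1 library at a time, they ran from 14 to 23, 0 to 6 and 6 to 18. The second was 0 in 6 of these 15 fits (without any 1 of PBS replicates 1 to 4 or of anti–IL-4Rα replicates 1 and 5) and 6 without anti–IL-4Rα replicate 3. The third was 6 without isotype replicate 2 or 3 and 18 without isotype replicate 1.

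**Figure D4:**
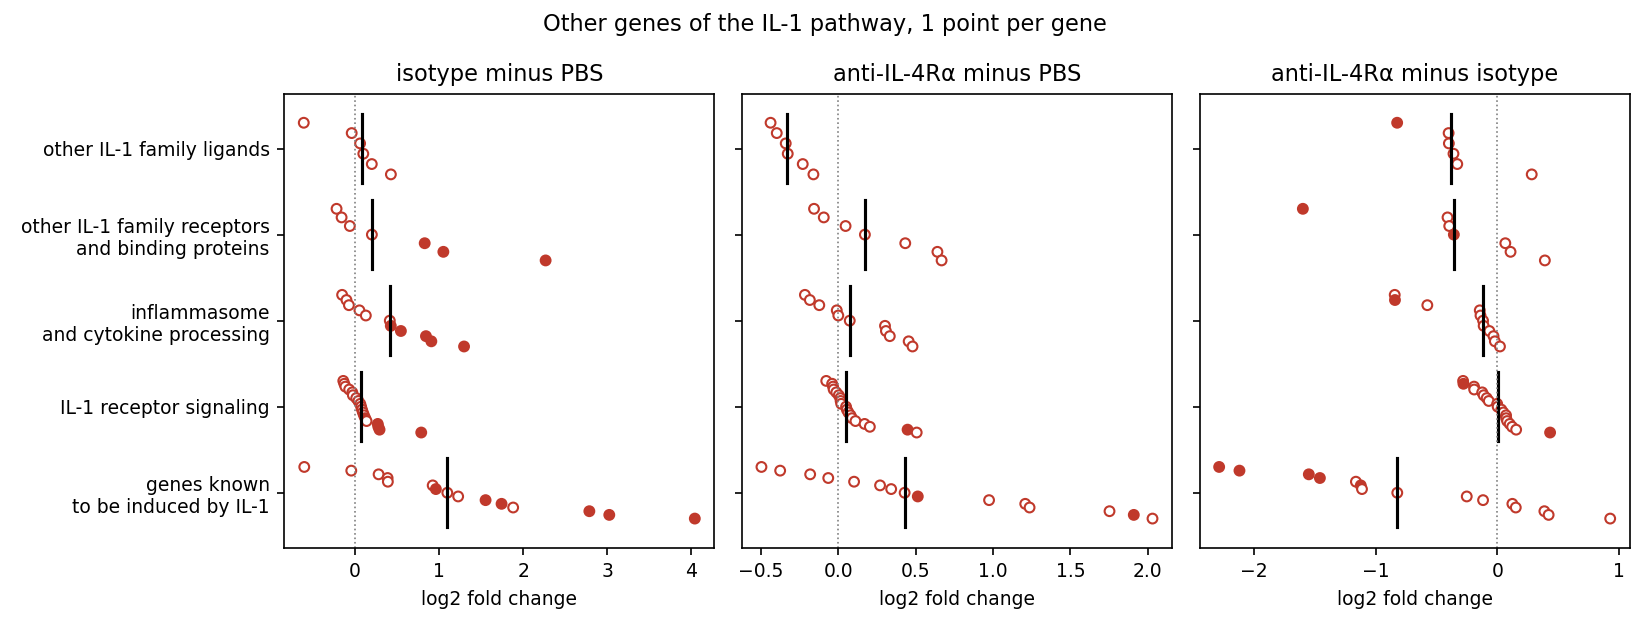
Log2 fold change of each tested gene of the 5 pathway lists in the 3 comparisons (1 point per gene, filled where the adjusted p was under 0.05; vertical bars show list medians). For genes known to be induced by IL-1 the median is 1.10 for isotype minus PBS and -0.82 for anti–IL-4Rα minus isotype.

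On average the neutrophil marker sum, like *Il1b*, was higher in isotype than in both other groups. The sums of monocytes and macrophages and of T cells differed little between anti–IL-4Rα and isotype (log2 0.13 and -0.14). In bulk tissue fewer cells of a type and less RNA per cell cannot be told apart. The summed neutrophil markers were 52.5, 26.9, 45.9, 38.2 and 40.1 CPM in PBS and 59.3, 117, 81.4, 84.0 and 112 CPM in isotype replicates 1 to 5. In anti–IL-4Rα replicates 1 to 5 they were 29.3, 36.9, 31.2, 104.5 and 21.7 CPM. The isotype values were all higher than the PBS values, with replicate 1 the lowest as for *Il1b*, and anti–IL-4Rα replicate 4, which also had the most *Il1b* of its group, lay among the isotype libraries. Most of the 4231 marker counts in that anti–IL-4Rα library were *S100a8* (1236) and *S100a9* (2117). The other markers there were *Cxcr2* (521), *Csf3r* (326), *Retnlg* (26), *Mmp8* (4) and *Ly6g* (1). For *Csf3r*, PBS libraries had 209 to 465 counts and isotype libraries 487 to 2359. The log2 differences of these sums are differences between group means of the log2 level, which weigh low libraries more than means in CPM do. For neutrophil markers the log2 difference was 1.15 for isotype against PBS (exact permutation p = 0.00794, the smallest that 5 against 5 can give; 0.0595 after adjustment over 30 comparisons of 10 lists), -0.08 for anti–IL-4Rα against PBS (exact p = 0.897; the means in CPM were 44.72 and 40.72) and -1.23 for anti–IL-4Rα against isotype (exact p = 0.0317, adjusted 0.106).

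Of 7 neutrophil markers 6 were tested. In isotype against PBS 4 of 6 rose (*Csf3r*, *Retnlg*, *Mmp8* and *Cxcr2*; median 1.23), and in anti–IL-4Rα against isotype 3 fell (*Csf3r*, *Mmp8* and *Retnlg*; median -1.34). Of all genes, 9.53% rose in the first comparison and 8.13% fell in the second. Anti–IL-4Rα against PBS gave 0 in edgeR (median 0.07), 3 at an unadjusted p under 0.05, 1 with DESeq2 and 0 with limma. *S100a9* was most abundant, with 31.3% of the sum, and the defining marker *Ly6g* had 0 to 5 counts per library. The part of these markers in the *Il1b* result was not tested.

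**Figure D5:**
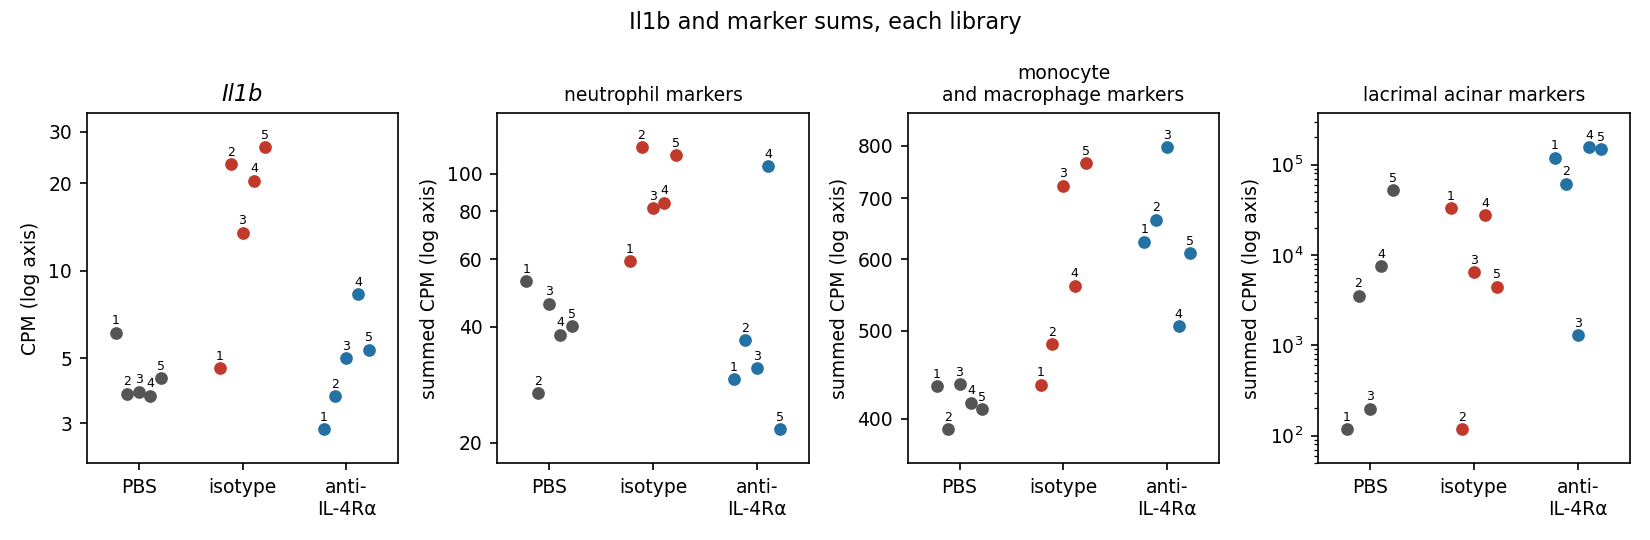
*Il1b* and the summed markers of neutrophils, of monocytes and macrophages, and of lacrimal acinar cells (CPM, log axes) in each of the 15 libraries, numbered by replicate. Isotype replicates 2 to 5 are high for *Il1b* (13.5 to 26.6 CPM) and for the neutrophil sum (81.4 to 117 CPM), and 4 of 5 anti–IL-4Rα libraries are high for the lacrimal sum (61520 CPM or more).

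The summed monocyte and macrophage markers were 435, 390, 437, 417 and 410 CPM in PBS and 436, 483, 723, 561 and 765 CPM in isotype replicates 1 to 5. Anti–IL-4Rα replicates 1 to 5 had 627, 664, 798, 506 and 609 CPM, all above PBS. The log2 difference was 0.48 for isotype against PBS (exact permutation p = 0.0159, adjusted 0.0680), 0.60 for anti–IL-4Rα against PBS (exact p = 0.00794, adjusted 0.0595) and 0.13 for anti–IL-4Rα against isotype (exact p = 0.508). Of its 6 genes 3 rose in isotype against PBS (*Adgre1*, *Csf1r* and *Ccr2*; median 0.60) and 2 in anti–IL-4Rα against PBS (*Lyz2* and *Ccr2*; median 0.60; 3 with DESeq2 and 1 with limma). Anti–IL-4Rα against isotype gave 0 (edgeR; median -0.20), with 1 at an unadjusted p under 0.05, 1 with DESeq2 and 0 with limma. *Lyz2* made up 51.5% of the sum. Without it the difference between anti–IL-4Rα and isotype was -0.18 (exact p = 0.341). No marker was at 0 in any library. The part of these markers in the *Il1b* result was not tested.

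Stratified epithelium, a main store of *Il1a*, *Il1rn* and *Il18*, was represented by 6 markers, with *Krt5* at 48.8% of the sum and none at 0. The sum was 12600, 12070, 11100, 10110 and 10010 CPM in PBS, 12020, 12470, 14740, 10970 and 12890 CPM in isotype and 8662, 8177, 11390, 9412 and 9394 CPM in anti–IL-4Rα replicates 1 to 5. Anti–IL-4Rα replicates 1, 2, 4 and 5 lay below every PBS and isotype library, and for *Il18* replicates 1, 2 and 4 did. The log2 difference in the sum was -0.25 against PBS (exact permutation p = 0.0476, adjusted 0.143) and -0.43 against isotype (exact p = 0.0159, adjusted 0.0680), and 0.17 for isotype against PBS (exact p = 0.119). Of the 6 genes, 1 rose in isotype against PBS (*Krt14*; median 0.02) and 3 fell in anti–IL-4Rα against isotype (*Krt14*, *Trp63* and *Dsg3*; median -0.29). Anti–IL-4Rα against PBS gave 0 in edgeR (median -0.23), 4 at an unadjusted p under 0.05, 1 with DESeq2 and 0 with limma. The part of these markers in the *Il18* values was not tested.

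Lacrimal acinar markers numbered 9, of which 7 were tested, *Lacrt* was not matched and *Prol1* had 0 counts in all 15 libraries. *Mucl2* was the most abundant (20360 CPM on average), and *Lcn11* was at 0 in 1 library, isotype replicate 2. In edgeR 1 of 7, *Aqp5*, rose in anti–IL-4Rα against PBS (median 3.06) and in anti–IL-4Rα against isotype (median 2.71), and isotype against PBS gave 0 (median 0.27), also at an unadjusted p under 0.05, with DESeq2 and with limma. In each of the first 2 comparisons DESeq2 called 1 of the 7 and limma 0. *Aqp5* had 5849 to 11194 counts in every library, also where other lacrimal markers were scarce. It held 8381 of the 8589 summed counts in PBS replicate 1 and 11194 of 11499 in isotype replicate 2. *Mucl2* had 2 and 34 counts in those libraries. The log2 difference of the sum was 4.54 for anti–IL-4Rα against PBS (exact permutation p = 0.0794), 3.23 against isotype (exact p = 0.135) and 1.31 for isotype against PBS (exact p = 0.619), all between means of log2 levels. That last value ran from 0.29 to 2.66 when 1 library was left out. The means in CPM were 12690 in PBS, 14270 in isotype and 97680 in anti–IL-4Rα. Without anti–IL-4Rα replicate 3, an alternative chosen after seeing the data, the difference was 5.84 from PBS and 4.53 from isotype, and both passed (adjusted p = 0.0476 each). In that setting 4 other differences of marker sums reached the same adjusted p: those of monocytes and macrophages (0.52) and T cells (0.57) in anti–IL-4Rα against PBS, and those of stratified epithelium for anti–IL-4Rα against each other group (-0.32 from PBS, -0.50 from isotype). With the lacrimal sum as a covariate, *Il1b* kept its increase in isotype against PBS past the threshold, and its difference between anti–IL-4Rα and isotype was -1.61 (adjusted p = 0.0576).

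T cell markers and those of basophils and mast cells had higher group means in both OVA groups than in PBS. The T cell sum was 12.7, 8.11, 10.95, 12.3 and 12.4 CPM in PBS, 12.4, 19.0, 29.5, 19.3 and 28.5 CPM in isotype and 14.9, 19.5, 31.8, 12.9 and 20.1 CPM in anti–IL-4Rα replicates 1 to 5 (log2 0.90, 0.76 and -0.14 for isotype against PBS, anti–IL-4Rα against PBS and anti–IL-4Rα against isotype; exact permutation p = 0.0159, 0.00794 and 0.714, adjusted 0.0680, 0.0595 and 0.739). The most abundant T cell marker, *Cd4*, made up 47.9% of the sum, and without it the differences of both OVA groups from PBS were 0.37 for isotype and 0.30 for anti–IL-4Rα (exact p = 0.159 and 0.254). Of 4 T cell genes 2 rose in isotype against PBS (*Cd4* and *Trac*; median 0.63) and 1 in anti–IL-4Rα against PBS (*Cd4*; median 0.55), and anti–IL-4Rα against isotype gave 0 (median -0.10) in edgeR, at an unadjusted p under 0.05, with DESeq2 and with limma.

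The basophil and mast cell sum was 28.0, 32.5, 18.8, 23.4 and 33.3 CPM in PBS, 28.1, 36.6, 59.0, 38.7 and 62.1 CPM in isotype and 30.1, 34.7, 40.5, 25.96 and 37.1 CPM in anti–IL-4Rα replicates 1 to 5. Isotype replicates 2 to 5 lay above all PBS libraries, as they did for *Il1b*. The differences were 0.69, 0.32 and -0.37 (exact permutation p = 0.0317, 0.135 and 0.190; adjusted 0.106, 0.225 and 0.283). *Cpa3* made up 85.5% of that sum. Without it the differences were 1.98, 1.19 and -0.79 (adjusted p = 0.0340, 0.0340 and 0.238), so the first 2 passed. The basophil protease *Mcpt8* was at 0 in 1 PBS library. Of 4 genes 3 rose in isotype against PBS (*Mcpt8*, *Fcer1a* and *Ms4a2*; median 1.94), 2 in anti–IL-4Rα against PBS (*Mcpt8* and *Fcer1a*; median 1.25), and 1 fell in anti–IL-4Rα against isotype (*Mcpt8*; median -0.69). DESeq2 called 4, 2 and 2 of them in these comparisons, and limma 3, 0 and 0. The part of T cell, basophil and mast cell markers in the *Il1b* and *Il1rl1* results was not tested.

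Skeletal muscle markers were lower in the isotype group, as *Il1r2* was. Their sum was 5165, 8869, 5409, 5825 and 7049 CPM in PBS, 4140, 3103, 4709, 3598 and 4700 CPM in isotype and 5195, 4374, 6075, 5148 and 4106 CPM in anti–IL-4Rα replicates 1 to 5, with *Myh4* at 36.7% of it and no marker at 0. All isotype libraries lay below all PBS libraries. The log2 difference was -0.66 for isotype against PBS (exact permutation p = 0.00794, adjusted 0.0595), -0.36 for anti–IL-4Rα against PBS (exact p = 0.0794) and 0.30 for anti–IL-4Rα against isotype (exact p = 0.0873). In isotype against PBS 4 of 5 genes fell (*Acta1*, *Ckm*, *Myh4* and *Ttn*; median -0.64). Anti–IL-4Rα against PBS and against isotype gave 0 of 5 in edgeR (medians -0.48 and 0.27), 3 and 1 at an unadjusted p under 0.05, 0 and 1 with DESeq2 and 0 and 0 with limma. The part of these markers in the *Il1r2* result was not tested.

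The remaining marker lists were those of goblet cells, of hair and cornified epithelium and of meibomian and sebaceous glands. Goblet cell markers (4 genes, *Muc5ac* 93.5% of the sum) had medians of 0.39, 0.14 and -0.20 in isotype against PBS, anti–IL-4Rα against PBS and anti–IL-4Rα against isotype. *Spdef* rose in the first and in the second of these, and the third gave 0 in edgeR, at an unadjusted p under 0.05, with DESeq2 and with limma. Hair and cornified epithelium markers (5 genes, *Krt10* 43.4%) had medians of 0.01, -0.32 and -0.33, with 0 passing in edgeR, DESeq2 and limma in each comparison and 3, 2 and 2 at an unadjusted p under 0.05. Meibomian and sebaceous markers (5 genes, *Far2* 41.4%) had medians of -0.28, 0.25 and 0.39, with 0 passing in the 3 tools and 0, 0 and 1 at an unadjusted p under 0.05. The exact permutation p of the 9 summed differences of these lists lay between 0.103 and 0.579.

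Within groups, some genes followed the members closely from library to library. After subtracting group means, Pearson correlations of log2 CPM over the 15 libraries were taken for 15489 genes, and the 3 highest are given for 5 of the 6 members as a description. *Il1a* was closest to the immediate early genes *Ier3* (0.937) and *Phlda1* (0.930) and to *Coq10b* (0.893). The closest to *Il1rn* were *Tuba8* (0.921), *Eif6* (0.897) and *Zc3h12a* (0.884). *Il18* followed *Otop3* (0.963), *Serpinb8* (0.958) and the cornified envelope gene *Hrnr* (0.940). *Il1r1* was closest to *Wdr33* (0.915), *Nod1* (0.885) and *Pcdhgc5* (0.873), and *Il1r2* to *Agpat4* (0.919), *Gm94* (0.916) and *Acap2* (0.905). The points share the libraries, their depth and their tissue composition.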

How the data were processed

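RNA-seq of mouse conjunctiva was analyzed from the deposited table of estimated counts per gene. The authors selected polyA RNA, prepared stranded libraries, used Omicsoft Array Studio to map read pairs to mouse genome B38 and an Ensembl annotation, and deposited estimated (expected) counts that were not scaled for depth. Counts per gene came from the same software, and whether strand was used is not stated. The 15 libraries held 48622246 to 87745024 counts, with 6222 to 8005 genes per library at fractional values, which were rounded to whole numbers.

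The 19006 genes that reached 10 counts in 5 or more libraries were tested with edgeR 4.0.16 (R 4.3.3; TMM factors, quasi-likelihood test, 1 model for the 3 groups, two-sided, Benjamini-Hochberg over all genes tested, threshold 0.05), in code tested on simulated data. Library totals and summed marker levels (CPM) were compared by exact permutation tests. Alternatives used DESeq2 1.42.0, limma 3.58.1, upper quartile factors, other filters, only the 2 groups compared, a replicate block, a lacrimal covariate and each library left out. Summed marker levels and ratios with a library left out were chosen after seeing the data. Levels per length used exon lengths of GENCODE M21 (Ensembl 96, GRCm38), to which 55141 of 55487 gene identifiers matched. Plots and summaries used Python 3.11.15, pandas 2.3.3, scipy 1.17.1 and matplotlib 3.10.9.

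Genes given with fold changes were the 6 members, *Casp1* and at most 4 genes per pathway list and comparison. These 4 had passed, with the largest absolute log2 fold changes. Other list genes that passed were named without fold changes. The gene of highest level per length was named for each pathway list, and the most abundant by CPM for each marker list. For 5 of the 6 members, the 3 genes most like the member were named, among those with at least 1 CPM on average. The members and lists (5 of pathway genes, 10 of cell type markers) were chosen with earlier results of these data known.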

Additional observations from a re-analysis of the deposited data

Results flagged for a closer look

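In each group of 5 libraries, the gap between the most extreme library and its neighbour was divided by the range of the group, and a ratio above Dixon's critical value of 0.71 was marked. Of 57 groups tested 6 were marked, and chance marks about 1 in 20 groups.

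*Il1b* in PBS replicate 1 was 6.13 CPM, with the next library at 4.27 CPM (ratio 0.774). The library lay below isotype replicates 2 to 5. *Il1rn* in isotype replicate 4 was 56.6 CPM, with the next at 69.1 CPM (0.760), and *Il18* in isotype replicate 3 was 37.7 CPM, with the next at 29.7 CPM (0.758). The ratio of *Il1rn* to *Il1b* in isotype replicate 1 was 5.43, with the next at 1.77 (0.812), and it lay in the PBS range. The neutrophil marker sum in anti–IL-4Rα replicate 4 was 104.5 CPM, with the next at 36.9 CPM (0.816). The lacrimal marker sum in PBS replicate 5 was 52100 CPM, with the next at 7507 CPM (0.858). Their causes were not tested.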

How the results depend on the processing

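*Il1b* in isotype against PBS passed under 8 of 8 other settings and without any single library in turn (log2 1.61 to 2.26). In anti–IL-4Rα against isotype it missed the threshold when only the 2 groups were fitted (-1.81) and with the lacrimal covariate (-1.61). *Il1r2* in isotype against PBS missed it with no filter (-0.35). With the replicate block *Il1r2* was -0.36 and *Il1r1* -0.002, and 2115, 312 and 1859 genes were called in isotype against PBS, anti–IL-4Rα against PBS and anti–IL-4Rα against isotype; of the members 1 was called in isotype against PBS, and of the pathway genes 1 in anti–IL-4Rα against PBS. Correlations between libraries of the same replicate number ran from -0.385 to 0.454. They were not compared with those of different numbers, so whether the numbers mark pairs was not settled. The sign turned for *Il1r1* in isotype against PBS with upper quartile factors (-0.024) and limma (-0.027), and for *Il1rn* in anti–IL-4Rα against PBS with the covariate (0.026).

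A threshold that adds at least 1.5-fold left 1306, 272 and 1010 genes in the 3 comparisons. In anti–IL-4Rα against PBS, 1966 genes were called with DESeq2, 469 with limma, 327 with no filter and 122 with the covariate, and of the pathway genes 11, 0 and 1 with DESeq2, limma and no filter. In anti–IL-4Rα against isotype, 1749 genes were called with no filter, 675 with only the 2 groups and 656 with the covariate. With only the 2 groups 3 pathway genes and 0 members were called, and with the covariate 0 members. With no filter 1 member was called in isotype against PBS.

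Without the most abundant gene of a list, these marker sums passed after adjustment: neutrophil (1.17), monocyte and macrophage (0.67), skeletal muscle (-0.68) and basophil and mast cell (1.98) in isotype against PBS, monocyte and macrophage (0.49) and basophil and mast cell (1.19) in anti–IL-4Rα against PBS, and stratified epithelium (-0.58) in anti–IL-4Rα against isotype. The sign turned for neutrophil (0.16) and goblet (0.31) in anti–IL-4Rα against PBS, monocyte and macrophage (-0.18) in anti–IL-4Rα against isotype and hair and cornified epithelium (0.041) in isotype against PBS. The T cell sum without *Cd4* was 0.37 in isotype against PBS and 0.30 in anti–IL-4Rα against PBS.

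Leaving out 1 library at a time, genes called ranged from 1863 to 3936 in isotype against PBS, 82 to 2029 in anti–IL-4Rα against PBS and 882 to 4206 in anti–IL-4Rα against isotype, members called from 1 to 3, 0 to 1 and 1 to 2, and pathway genes called from 0 to 6 in anti–IL-4Rα against PBS and 6 to 18 in anti–IL-4Rα against isotype. Log2 differences in isotype against PBS ran from 0.40 to 0.67 for *Il1a*, -0.033 to 0.047 for *Il1r1*, -0.40 to -0.27 for *Il1r2* and 0.29 to 2.66 for lacrimal markers. In anti–IL-4Rα against PBS they ran from -0.042 to 0.37 for *Il1b*, -0.49 to -0.30 for *Il18*, -0.44 to 0.12 for the neutrophil sum, 0.52 to 0.69 for monocytes and macrophages, -0.32 to -0.20 for stratified epithelium, 3.52 to 5.84 for lacrimal markers and 0.57 to 0.90 for T cells. In anti–IL-4Rα against isotype they ran from -0.056 to 0.11 for *Il1rn*, -0.17 to -0.086 for *Il1r1*, -0.50 to -0.37 for stratified epithelium and 1.88 to 4.53 for lacrimal markers. Marker sums with a library left out were an alternative chosen after seeing the data. Of all these fits, sums passed only without anti–IL-4Rα replicate 3, each with adjusted p = 0.0476: monocyte and macrophage (0.52), stratified epithelium (-0.32), lacrimal (5.84) and T cell (0.57) in anti–IL-4Rα against PBS, and stratified epithelium (-0.50) and lacrimal (4.53) in anti–IL-4Rα against isotype. The causes were not tested. Replicate counts differed by 19.53 to 1074 times the variance of counting alone (30 pairs), highest where anti–IL-4Rα replicate 3, low in lacrimal RNA, was paired with replicates 4 and 5.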
